A study of Mus musculus with 2 samples.

Results

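The genes described here are 10 pattern-recognition receptors of myeloid cells and their signalling partners: Cd14, Tlr2, Tlr4, Myd88, Clec4d, Clec4e, Clec7a, Fpr1, Fpr2 and Nlrp3. They were chosen as a named list, and their rows were taken by gene symbol. Of the 10, 9 were matched among the 32285 genes of the count matrices, and Clec7a, the β-glucan receptor dectin-1, was not analysed here. In these tumours the genes separated into 2 groups. Cd14, Clec4d, Clec4e, Fpr1, Fpr2 and Nlrp3 were more than 2-fold higher in the takinib library than in the vehicle library in macrophage-like, monocyte-like and neutrophil-like cells, while Tlr4 and Myd88 differed by less than that in all 3 classes and Tlr2 passed it in neutrophil-like cells and not in the other two. In monocyte-like cells this side of the line depended on the processing for Tlr2, whose log2 ratio of 0.88 was between 0.56 and 1.91 under other settings, and for Tlr4, whose 0.31 became 1.04 at a stricter mitochondrial limit. In macrophage-like cells, giving the clusters found in both libraries the same weight left only Clec4e and Fpr1 past 2-fold. The log2 ratio was then 0.85 for Cd14, 0.81 for Clec4d, 0.74 for Fpr2 and 0.81 for Nlrp3. The 2 libraries also held different neutrophil clusters. A cluster with 245 of the 274 vehicle neutrophil-like cells held 58 of the 12090 takinib cells of the class. There only Fpr1 of the 6 genes, with 3 and 5 UMIs, was more than 2-fold higher. In a second cluster, with 20 vehicle and 2782 takinib cells, Cd14, Clec4e, Fpr1 and Fpr2 passed 2-fold.

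Pattern-recognition receptors let cells of innate immunity sense conserved molecules of microbes and material released by dying cells. Toll-like receptors (TLRs) span the cell surface or endosomal membrane and signal through the adaptor MyD88 and the IRAK kinases to the kinase TAK1, which activates NF-κB and MAP kinases. C-type lectin receptors bind sugars and lipids and signal through the kinase Syk, formyl peptide receptors guide neutrophils towards N-formylated peptides of bacteria and mitochondria, and NLRP3 assembles an inflammasome that activates caspase-1 and the maturation of interleukin-1β.

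Single cells were measured in pancreatic tumours of KPPC mice, 6 weeks old, given vehicle or takinib, an inhibitor of TAK1, at 50 mg/kg for 14 days. Both groups carry the same KPPC label, which names neither the alleles nor the Cre driver. There was 1 library per group, and the number of mice in each was not stated. With 1 library per group no test between the conditions could be made: no p-value is given, and every interval is an exact Poisson or binomial 95% interval that covers counting error only, not the spread between mice. Treatment, library, animal, software version and capture therefore cannot be told apart, and the sex of the cells also differed in part, as given below.

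After filtering, 9558 vehicle cells with 42000538 unique molecular identifiers (UMIs, counted mRNA molecules) and 25183 takinib cells with 119726977 UMIs were kept, with a median of 3556 and 2887 UMIs per cell. The libraries shared 359 cell barcodes. The vehicle library held cells of both sexes by their transcripts, 1075 with Xist and no Y-linked UMI and 3087 the reverse, while the takinib library had 14324 cells with Xist and 0 Y-linked UMIs. Cells were clustered without the genes described here and named from marker genes. Myeloid classes were macrophage-like (4651 vehicle and 6005 takinib cells), monocyte-like (102 and 994) and neutrophil-like (274 and 12090). Neutrophil-like cells were 2.87% of vehicle cells and 48.0% of takinib cells. The summed level of the abundant neutrophil transcripts S100a8 and S100a9 differed in the same direction in all 8 classes compared: epithelial-like cells held 94.7 CPM (UMIs of a gene scaled to 1000000 UMIs of the class) in vehicle and 8973 CPM in takinib, and neutrophil-like cells 51149 and 131848 CPM.

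**Figure D1:**
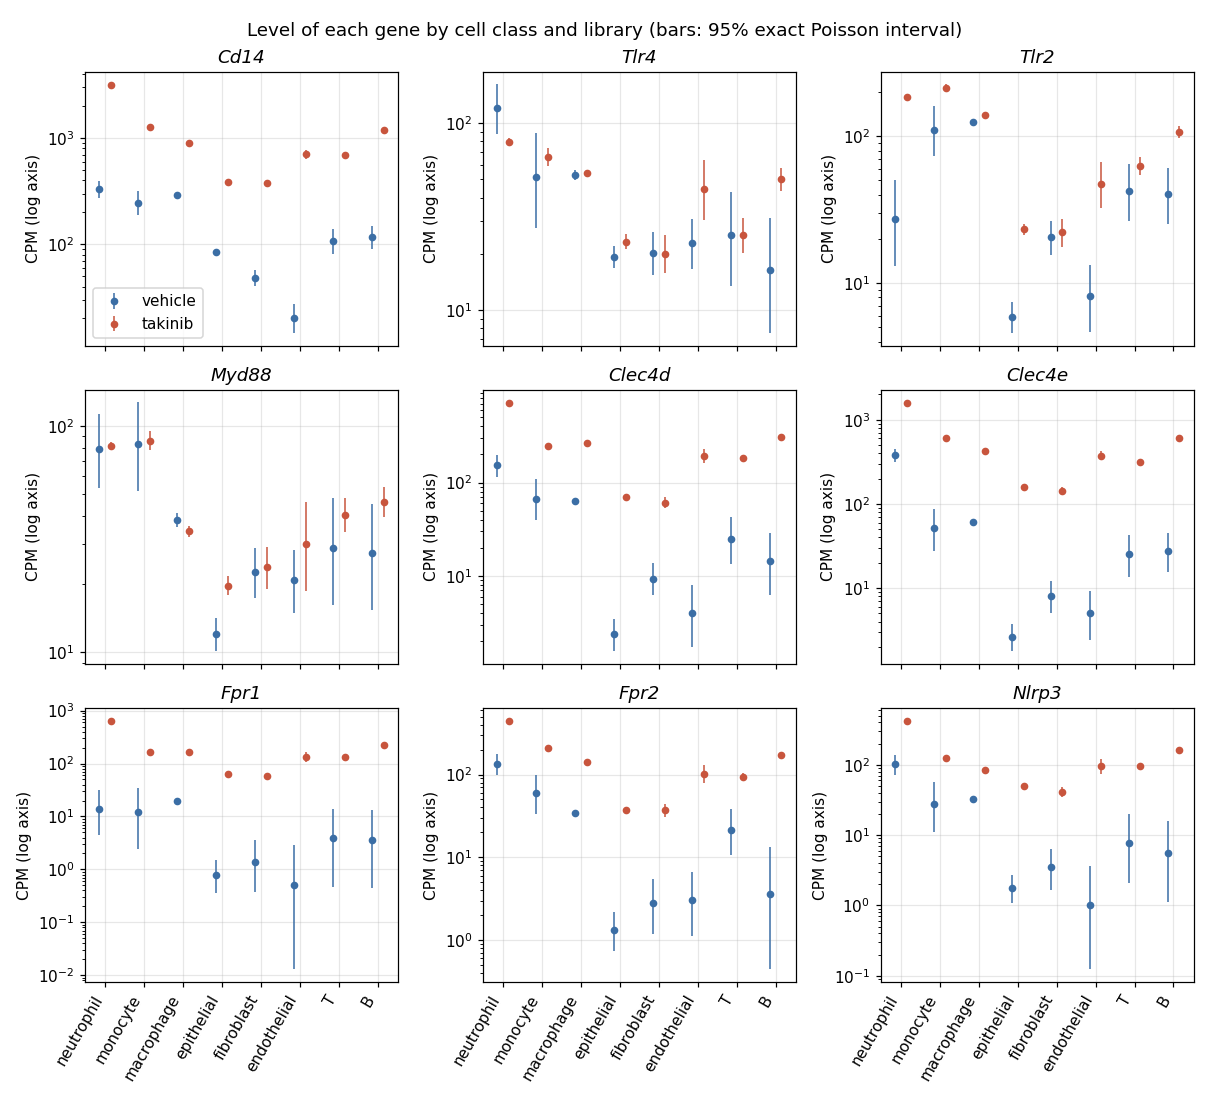
Level of each of the 9 genes (CPM, log axis) in 8 cell classes of the vehicle (blue) and takinib (red) libraries, with exact Poisson 95% intervals. Cd14, Clec4d, Clec4e, Fpr1, Fpr2 and Nlrp3 lie higher in takinib in every class shown, whereas the points of Tlr4 and Myd88 lie close together in the macrophage-like class.

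Among the 10 classes with at least 100 vehicle cells, neutrophil-like cells had the highest level of 6 of the 9 genes, with macrophage-like cells highest for Tlr2, monocyte-like cells for Myd88 and acinar-like cells for Fpr1. The acinar-like cells carried macrophage markers at 20645 CPM in sum, against 22904 CPM in macrophage-like cells and 826 CPM in perivascular-like cells, and the macrophage-like profile scaled to those markers would hold between 81.5% (Fpr1) and 128% (Clec4e) of their receptor UMIs. In takinib, where 11 classes had at least 100 cells, neutrophil-like cells were highest for 7 genes and monocyte-like cells for Tlr2 and Myd88. For Myd88 the intervals of monocyte-like and neutrophil-like cells overlapped in both libraries. In vehicle the highest class also overlapped with the next for Cd14 (neutrophil-like and macrophage-like), Tlr2 (macrophage-like and monocyte-like) and Fpr1 (acinar-like and macrophage-like), so that these orders are within counting error. Myd88 was not confined to myeloid classes, with perivascular-like cells at 37.0 CPM [29.5, 45.9], an interval that overlapped that of macrophage-like cells.

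Cd14 is a surface protein without a signalling domain of its own that passes lipopolysaccharide to TLR4. Its gene lies on chromosome 18 at 36725067-36726798 (GRCm38, minus strand). In macrophage-like cells Cd14 was at 292 CPM [285, 300] in vehicle and 890 CPM [881, 899] in takinib, in monocyte-like cells at 246 CPM [188, 315] and 1273 CPM [1243, 1305], and in neutrophil-like cells at 330 CPM [274, 394] and 3186 CPM [3166, 3207]. The intervals of the libraries did not overlap in any of the 3 classes. In vehicle the 3 myeloid classes overlapped with each other, whereas in takinib neutrophil-like cells stood above monocyte-like cells and those above macrophage-like cells. The log2 ratio of takinib to vehicle, computed as (takinib CPM + 10)/(vehicle CPM + 10), was 1.57 [1.53, 1.61] in macrophage-like, 2.33 [1.98, 2.70] in monocyte-like and 3.23 [2.98, 3.49] in neutrophil-like cells.

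Tlr4, the lipopolysaccharide receptor (chromosome 4, 66827584-66930284), differed little between the libraries in macrophage-like cells, at 52.7 CPM [49.6, 55.9] in vehicle and 54.0 CPM [51.8, 56.2] in takinib, with a log2 ratio of 0.03 [-0.06, 0.12]. In neutrophil-like cells Tlr4 was the 1 gene of the 9 that was lower in takinib, at 120 CPM [87.2, 161] in vehicle and 79.6 CPM [76.5, 82.9] in takinib, with a log2 ratio of -0.54 [-0.94, -0.11]. Over all genes tested in that class the median was -0.36, within that interval. Thus Cd14 was higher in takinib in cells in which its partner receptor Tlr4 was not.

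Tlr2 recognises bacterial lipopeptides together with TLR1 or TLR6, and lies on chromosome 3 at 83836272-83841767 on the minus strand. Its promoter is shown because κB sites are classical elements of TLR-induced genes; the capitals mark the letters that match the κB motif as searched (GGG, any 3 bases, then TTCC), 173 bases before the start site (RefSeq, GRCm38.p6, chr3:83841559-83841858, minus strand, from 250 bases before to 50 bases after the start).
Tlr2: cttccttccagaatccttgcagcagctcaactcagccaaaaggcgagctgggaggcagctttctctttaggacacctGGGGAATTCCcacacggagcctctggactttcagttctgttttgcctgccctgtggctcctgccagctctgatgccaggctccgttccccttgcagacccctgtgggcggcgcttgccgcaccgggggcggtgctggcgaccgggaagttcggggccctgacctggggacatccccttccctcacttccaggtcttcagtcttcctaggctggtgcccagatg
This motif, searched on both strands, is present in 5.56% of all 32851 RefSeq promoters of the same length, and a match is no evidence of binding. In macrophage-like cells Tlr2 was at 124 CPM [119, 129] in vehicle and 140 CPM [136, 143] in takinib, a log2 ratio of 0.16 [0.09, 0.22]. In monocyte-like cells it was at 111 CPM [73.7, 160] and 213 CPM [200, 226], a log2 ratio of 0.88 [0.38, 1.42]. In neutrophil-like cells it was at 27.3 CPM [13.1, 50.2], from 10 UMIs, and 184 CPM [179, 189], a log2 ratio of 2.38 [1.69, 3.07]. In vehicle neutrophil-like cells Tlr2 lay below macrophage-like cells. The neutrophil-like ratio compares different clusters: in the cluster led by Siglecf and Mmp9, which had most of the vehicle cells, Tlr2 was at 28.4 CPM from 9 UMIs in vehicle and 28.9 CPM from 4 UMIs in takinib, a log2 ratio of 0.02 [-1.32, 1.35].

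Myd88 encodes the adaptor that most TLRs and the interleukin-1 receptor share (chromosome 9, 119335934-119341411, minus strand). It was at 38.3 CPM [35.7, 41.1] in vehicle and 34.2 CPM [32.5, 36.0] in takinib macrophage-like cells, at 83.2 CPM [51.5, 127] and 86.1 CPM [78.2, 94.6] in monocyte-like cells, and at 79.1 CPM [53.0, 114] and 81.5 CPM [78.3, 84.8] in neutrophil-like cells. The log2 ratios were -0.13 [-0.23, -0.03], 0.04 [-0.53, 0.66] and 0.04 [-0.44, 0.54]. The adaptor was thus within 2-fold between the libraries in every myeloid class, and its order of classes, with macrophages below monocytes and neutrophils, was the same in both.

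Clec4d (MCL) and Clec4e (Mincle, a receptor for mycobacterial cord factor and for a protein released by dead cells) form a pair of neighbouring genes on chromosome 6, at 123262111-123275265 (plus strand) and 123281789-123289870 (minus strand), 6523 bases apart with no annotated gene between them. Their proteins can associate and signal through the Fc receptor γ chain. The promoters are shown because the genes are adjacent and had the same direction of difference in all 8 classes; capitals mark the letters that match the C/EBP motif TTGCNNAA on the strand opposite to the one printed, so that they read as its reverse complement, 66 bases before the Clec4e start (RefSeq, GRCm38.p6, chr6:123261857-123262156, plus strand, and chr6:123289822-123290121, minus strand).
Clec4d: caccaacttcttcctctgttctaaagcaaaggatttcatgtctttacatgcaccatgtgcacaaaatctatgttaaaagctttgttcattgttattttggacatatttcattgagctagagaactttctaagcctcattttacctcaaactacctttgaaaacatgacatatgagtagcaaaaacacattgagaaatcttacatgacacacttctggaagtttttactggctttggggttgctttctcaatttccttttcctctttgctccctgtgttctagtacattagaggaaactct
Clec4e: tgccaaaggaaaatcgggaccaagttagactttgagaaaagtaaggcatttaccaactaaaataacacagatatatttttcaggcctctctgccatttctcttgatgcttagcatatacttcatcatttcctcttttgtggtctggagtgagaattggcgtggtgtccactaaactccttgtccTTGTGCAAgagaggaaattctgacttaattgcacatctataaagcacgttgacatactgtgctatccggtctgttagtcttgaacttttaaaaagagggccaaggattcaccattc
The C/EBP motif is in 10.8% of all promoters. The motifs for PU.1 (GAGGAAGT, 3.2% of promoters) and AP-1 (TGANTCA, 7.81%) had no match in either window, nor did any of the 4 motifs in the windows of Myd88, Nlrp3, Fpr1 or Fpr2. No overlap between matches of different motifs occurred in the windows with a match.

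Clec4e was at 61.4 CPM [58.0, 64.9] in vehicle and 420 CPM [414, 426] in takinib macrophage-like cells, at 51.5 CPM [27.4, 88.1] and 609 CPM [588, 631] in monocyte-like cells, and at 379 CPM [319, 448] and 1592 CPM [1577, 1606] in neutrophil-like cells. The libraries did not overlap in any of these classes, with log2 ratios of 2.59 [2.52, 2.66], 3.33 [2.66, 4.05] and 2.04 [1.81, 2.29]. In vehicle, Clec4e set neutrophil-like cells apart from the other myeloid classes, which overlapped with each other. Clec4d was at 63.9 CPM [60.5, 67.5] and 264 CPM [259, 269] in macrophage-like cells, at 67.4 CPM [39.2, 108] and 249 CPM [235, 263] in monocyte-like cells, and at 153 CPM [115, 198] and 711 CPM [701, 720] in neutrophil-like cells. Its log2 ratios were 1.89 [1.81, 1.96], 1.74 [1.13, 2.40] and 2.15 [1.79, 2.52]. Clec4e thus differed more than Clec4d between the libraries in macrophage-like and monocyte-like cells, although in monocyte-like cells their intervals come from 13 and 17 vehicle UMIs.

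Fpr1 and Fpr2 encode chemotactic receptors, Fpr1 for formylated bacterial peptides and Fpr2 for a broader range of peptides and lipids. They lie side by side on chromosome 17, at 17876471-17883940 (minus strand) and 17887824-17893952 (plus strand), 3883 bases apart. Of the 1295 stretches of 50 bases in Fpr2 transcripts, 31.5% also occur in Fpr1, Fpr3 or Gm5966, so that its counts are uncertain, whereas only 0.078% of those of Fpr1 are shared. Fpr1 was at 19.5 CPM [17.7, 21.6] in vehicle and 162 CPM [159, 166] in takinib macrophage-like cells, a log2 ratio of 2.54 [2.44, 2.65]. In neutrophil-like cells it was at 13.6 CPM [4.43, 31.8] in vehicle, from 5 UMIs in 274 cells, and at 642 CPM [633, 651] in takinib, a log2 ratio of 4.78 [3.96, 5.50]. This was the largest ratio of the 9 genes in any myeloid class. Vehicle monocyte-like cells held 3 Fpr1 UMIs, at 11.9 CPM [2.45, 34.7], against 169 CPM [158, 180] in takinib. In vehicle, then, the neutrophil-like cells were no higher in Fpr1 than macrophage-like cells within counting error, although Fpr1 is a textbook neutrophil receptor. Fpr2 was at 34.5 CPM [32.0, 37.1] and 143 CPM [140, 147] in macrophage-like cells, at 59.4 CPM [33.3, 98.0] and 210 CPM [198, 223] in monocyte-like cells, and at 134 CPM [98.9, 177] and 442 CPM [434, 450] in neutrophil-like cells, with log2 ratios of 1.78, 1.67 and 1.65.

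Nlrp3 (chromosome 11, 59541568-59566956, plus strand) was at 33.0 CPM [30.5, 35.5] in vehicle and 84.3 CPM [81.6, 87.1] in takinib macrophage-like cells, at 27.7 CPM [11.2, 57.2] and 126 CPM [116, 136] in monocyte-like cells, and at 101 CPM [71.1, 139] and 419 CPM [412, 426] in neutrophil-like cells. The libraries did not overlap in any of the 3 classes. The log2 ratios were 1.13 [1.04, 1.23], 1.85 [1.01, 2.69] and 1.95 [1.52, 2.40]. Among the 6 genes past the 2-fold line in macrophage-like cells, Nlrp3 lay closest to it.

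**Figure D2:**
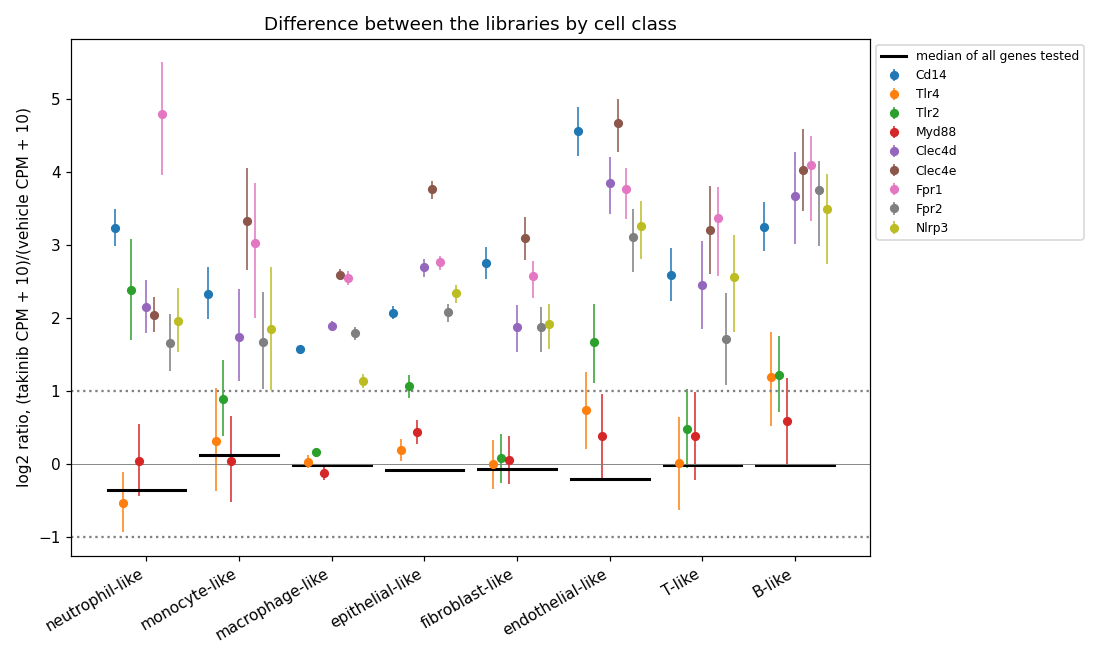
Log2 ratio of takinib to vehicle for each gene in 8 cell classes, with 95% counting intervals; the black bars are the median of all genes tested in the class and the dotted lines mark 2-fold. In macrophage-like cells 6 genes lie above the upper line and Tlr2, Tlr4 and Myd88 lie near 0.

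Counted over the list, macrophage-like cells had 6 of the 9 genes more than 2-fold higher in takinib and 0 lower, where 1.92% of the 11729 genes with at least 50 UMIs in a library of the class were higher and 1.15% lower. Their median log2 ratio was 1.57 [1.53, 1.61], against -0.02 over all genes tested. Brackets on a median hold the medians of the 9 genes' lower and upper interval ends. With the clusters given the same weight in both libraries the count was 2 and the median 0.81. Against vehicle cells with Xist and no Y-linked UMI the median was 1.00. Monocyte-like cells had 6 higher and 0 lower (7.16% of 7262 genes higher, 2.16% lower), with a median of 1.74 against 0.12. Neutrophil-like cells had 7 higher and 0 lower, where 3.98% of 10137 genes were higher and 14.5% lower, with a median of 2.04 [1.69, 2.40] against -0.36. Since the list was chosen with results of these libraries known, these counts describe it and do not test it.

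**Figure D3:**
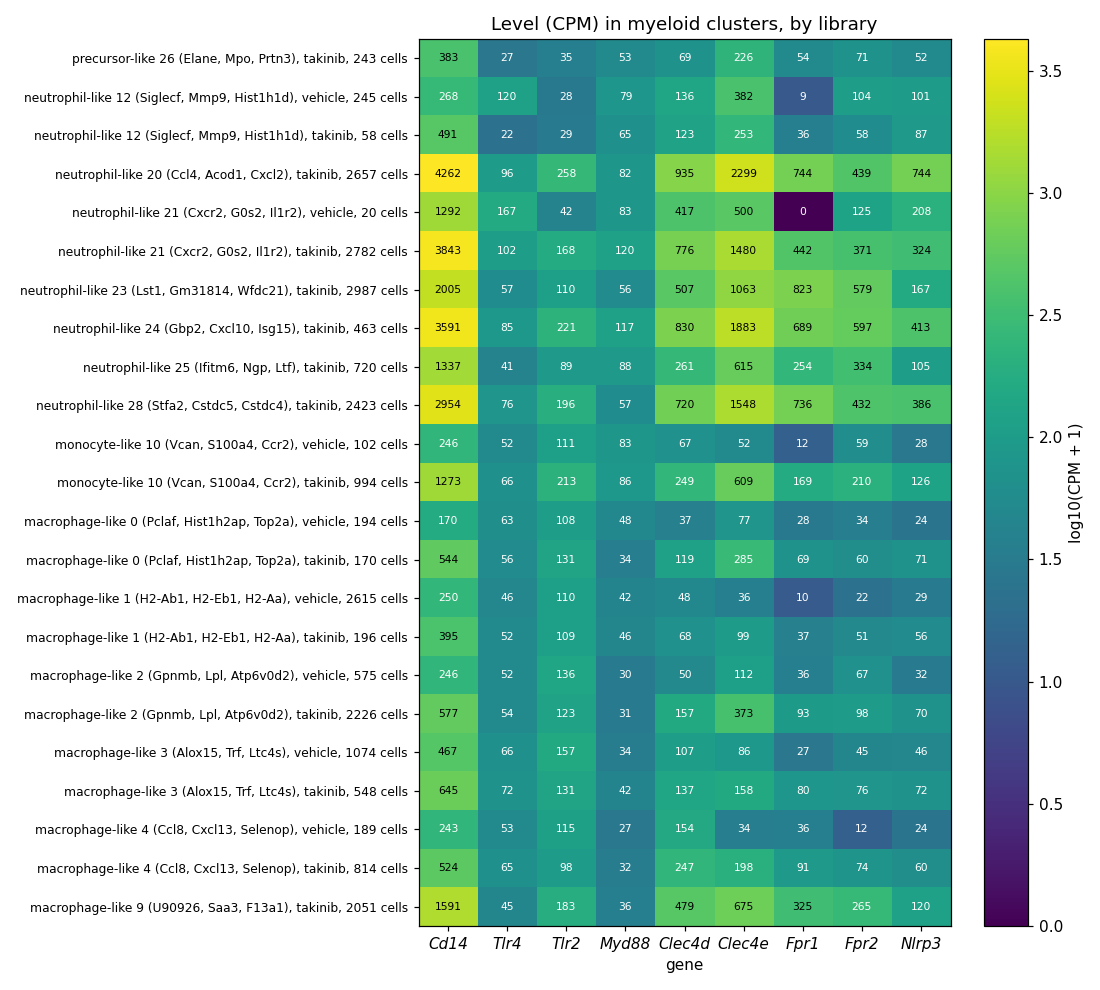
Level (CPM, number in each cell; colour is log10(CPM + 1)) of the 9 genes in myeloid clusters, 1 row per cluster and library with its leading genes and number of cells; only clusters with at least 20 cells in a library are shown. Clusters 9, 20, 23, 24, 25, 26 and 28 have a row for takinib only, and the Cd14 column ranges from 170 CPM in vehicle cluster 0 to 4262 CPM in takinib cluster 20.

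The macrophage-like class was made up differently in the libraries. A cluster led by MHC class II genes (H2-Ab1, H2-Eb1, H2-Aa) held 2615 vehicle and 196 takinib cells, while a cluster led by U90926, Saa3 and F13a1, which also had Arg1 among its leading genes, held 4 vehicle and 2051 takinib cells. The Saa3 cluster had the highest takinib level of 7 of the 9 genes among macrophage-like clusters: Cd14 was at 1591 CPM, Clec4d at 479 CPM, Clec4e at 675 CPM, Fpr1 at 325 CPM, Fpr2 at 265 CPM, Nlrp3 at 120 CPM and Tlr2 at 183 CPM. For Tlr4 it was the lowest of these clusters at 45.5 CPM.

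Of the macrophage-like clusters, 5 had 100 or more cells from both libraries, and in these the 6 genes were higher in takinib throughout. Clec4e was higher in takinib by a log2 ratio of 1.26 [0.97, 1.55] in the class II cluster, 1.66 [1.51, 1.80] in the cluster led by Gpnmb, Lpl and Atp6v0d2, 0.81 [0.64, 0.99] in the cluster led by Alox15 and C1q genes, 2.23 [1.72, 2.76] in the cluster led by Ccl8 and Folr2, and 1.76 [1.48, 2.04] in the cycling cluster. Fpr1 lay between 1.05 and 1.30 in all 5. Cd14 ranged from 0.46 [0.37, 0.54] in the Alox15 cluster to 1.63 [1.43, 1.83] in the cycling cluster, Clec4d from 0.33 to 1.48, Fpr2 from 0.49 to 1.93 and Nlrp3 from 0.53 to 1.25. Tlr2 ranged from -0.25 to 0.26 and Tlr4 from -0.16 to 0.25. With the clusters given the same weight in both libraries, 2 of the 6 genes remained past 2-fold in macrophage-like cells. These were Clec4e at 1.49 and Fpr1 at 1.20, and the median over the 9 fell to 0.81. That weighting used only clusters with at least 20 cells in each library, so the Saa3 cluster was left out of it too. Without the Saa3 cluster, chosen for this after its values were seen, Cd14 was at 0.93 and Nlrp3 at 0.86.

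The neutrophil-like class overlapped even less. Of its 274 vehicle cells, 245 lay in a cluster led by Siglecf and Mmp9 that held 58 takinib cells, and a further 20 lay in a cluster led by Cxcr2, G0s2 and Il1r2 that held 2782 takinib cells. Within the Siglecf cluster, where the intervals are wide with 58 takinib cells, 4 of the 6 genes had ratios below 0 and Cd14 and Fpr1 had ratios above 0. Clec4e was at 382 CPM in vehicle and 253 CPM in takinib, a log2 ratio of -0.58 [-1.13, -0.05]. Nlrp3 was at 101 and 86.6 CPM (-0.20 [-1.14, 0.69]), Clec4d at 136 and 123 CPM (-0.13 [-0.95, 0.64]) and Fpr2 at 104 and 57.8 CPM (-0.75 [-1.81, 0.24]). Cd14 was higher in takinib, at 268 and 491 CPM (0.85 [0.39, 1.31]), and Fpr1 was at 9.46 CPM from 3 UMIs and 36.1 CPM from 5 UMIs (1.24 [-0.20, 2.49]). Tlr4 was lower, at 120 CPM from 38 UMIs and 21.7 CPM from 3 UMIs (-2.04 [-3.24, -0.74]). In the Cxcr2 cluster, with 20 vehicle cells, Cd14 was at 1292 and 3843 CPM (1.56 [1.06, 2.12]) and Clec4e at 500 and 1480 CPM (1.55 [0.75, 2.47]). Fpr1 had 0 vehicle UMIs and was at 442 CPM in takinib (5.50 [1.46, 5.56]). Fpr2 was at 1.50 [0.02, 3.41] and Clec4d at 0.88 [0.02, 1.91]. The intervals for Nlrp3 (0.61), Tlr2 (1.79), Tlr4 (-0.65) and Myd88 (0.48) included 0. All but 58 of the 12090 takinib cells of the class lay in clusters with at most 20 vehicle cells, so that the state of the cells and the library cannot be told apart for any of the 9 genes in this class.

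Among takinib neutrophil-like clusters the receptors did not share 1 order. The cluster led by Ccl4, Acod1 and Cxcl2 (2657 cells) was highest for Cd14 at 4262 CPM, Clec4d at 935 CPM, Clec4e at 2299 CPM, Nlrp3 at 744 CPM and Tlr2 at 258 CPM; Nlrp3 was among its 10 leading genes. The cluster led by Lst1 and Wfdc21 (2987 cells) was highest for Fpr1, at 823 CPM, while its Nlrp3 level was 167 CPM and its Cd14 level 2005 CPM. The cluster led by the interferon-induced genes Gbp2, Cxcl10 and Isg15 (463 cells) had the highest Fpr2 level, at 597 CPM. Immature cells led by Ifitm6, Ngp and Ltf (720 cells) had lower levels, with Cd14 at 1337 CPM, Fpr1 at 254 CPM and Nlrp3 at 105 CPM, and precursor-like cells led by Elane, Mpo and Prtn3 (243 cells) were lower again, with 383, 54.0 and 51.6 CPM. Myd88 was between 56.0 and 120 CPM over these takinib neutrophil-like clusters with at least 100 cells.

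Per cell, receptors were found together more often in takinib. To compare cells of unequal depth, each cell was thinned to 1000 UMIs. UMIs of at least 3 of the 9 genes were then present in 6.93% of the neutrophil-like cells of vehicle and 68.1% of those of takinib, in 2.64% and 20.9% of macrophage-like cells, and in 0.98% and 28.9% of monocyte-like cells. The background in cells that should lack most of these receptors was not the same in the libraries: T-like cells had 0.403% in vehicle and 10.8% in takinib, at median depths of 1418.5 and 1884 UMIs before thinning. For Clec4e alone, the thinned share of macrophage-like cells with a UMI was 4.84% [4.24, 5.49] in vehicle and 23.8% [22.8, 24.9] in takinib, and that of T-like cells 2.02% [0.66, 4.64] and 14.8% [12.8, 16.8]; without thinning it was 16.3% and 53.2% in macrophage-like cells, at median depths of 3929 and 6191 UMIs, and 4.03% and 24.5% in T-like cells.

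Classes outside the myeloid lineage showed the same direction of difference. Members more than 2-fold higher in takinib numbered 6 in T-like cells (4.83% of all genes tested), 8 in B-like cells (7.03%), 7 in epithelial-like cells (2.26%), 6 in fibroblast-like cells (4.5%) and 6 in endothelial-like cells (4.12%), where 6 had enough UMIs to be tested. In endothelial-like cells Clec4e was at 5.08 CPM [2.43, 9.34] in vehicle and 373 CPM [329, 421] in takinib. Free RNA was measurable in vehicle, where 376283 barcodes with 1 to 100 UMIs had Cd14 at 126 CPM, Clec4e at 42.9 CPM and Fpr1 at 6.13 CPM in sum, compared with 106, 25.1 and 3.87 CPM in T-like cells; the takinib matrix starts at 500 UMIs and gives no such value. S100a8 and S100a9 were also higher in these classes of takinib, from 445 to 24185 CPM in endothelial-like cells, 98.1 to 10192 CPM in fibroblast-like cells, 491 to 16710 CPM in T-like cells and 618 to 35881 CPM in B-like cells. If those transcripts are taken as a measure of neutrophil RNA, the takinib neutrophil-like profile scaled to them would hold 78.3% of the Clec4e UMIs in endothelial-like cells, 85.4% in fibroblast-like cells, 67.4% in epithelial-like cells, 64.3% in T-like cells and 72.3% in B-like cells. For Clec4d and Fpr2 in fibroblast-like cells it would hold 90.3% and 92.8%. In macrophage-like cells the corresponding values were between 7.25% for Tlr2 and 27.3% for Nlrp3, and in monocyte-like cells between 8.55% for Tlr2 and 37.5% for Fpr1.

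**Figure D4:**
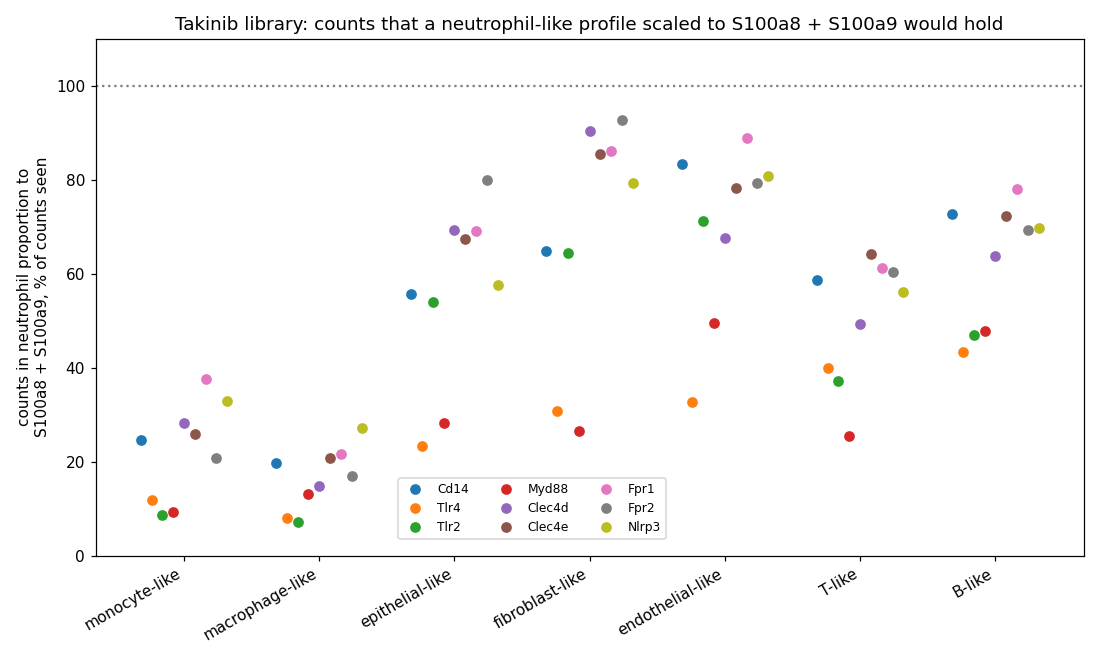
Takinib library: UMIs of each gene that the neutrophil-like profile, scaled to the S100a8 and S100a9 UMIs of the class, would hold, as a percentage of the UMIs seen; the dotted line marks 100%. Macrophage-like and monocyte-like cells lie below 40% for all 9 genes, while most of the 6 genes that were higher in takinib lie above 50% in the other classes.

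With that profile subtracted, Clec4d in fibroblast-like cells had a log2 ratio of -0.24 in place of 1.87. Fpr2 there was at 0.01 in place of 1.87. Other genes also fell below 2-fold, among them Clec4e (0.86) and Nlrp3 (0.50) in fibroblast-like cells. So did Fpr2 in T-like cells (0.73), and Fpr2 (0.68) and Tlr2 (0.44) in epithelial-like cells. The counts given above for these classes are without the subtraction. In macrophage-like cells the same subtraction removed 5.40% of the takinib UMIs and left Clec4e, Fpr1, Clec4d, Fpr2 and Cd14 past 2-fold, with Nlrp3 at 0.80. The B-like class held a cluster of 579 takinib and 3 vehicle cells in which Cd14 was at 2179 CPM and Clec4e at 1155 CPM, against 407 and 157 CPM in the takinib cells of the other B-like cluster. In the takinib cells left after doublet removal, these B-like cells thus carried Cd14 above the macrophage-like level; the part of doublets and free RNA in them was not tested.

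Cd14 was measurable in the tumour's epithelial-like cells in vehicle. It was at 85.2 CPM [80.0, 90.8], from 972 UMIs, and was found in 8.94% [7.63, 10.4] of the cells after thinning. Perivascular-like cells, the lowest class, had 8.02 CPM [4.75, 12.7] and 0.507% [0.105, 1.47]. Fibroblast-like and endothelial-like cells were at 48.0 and 20.3 CPM. B-like and T-like cells were higher in CPM, at 117 CPM [90.1, 149] and 106 CPM [80.1, 138], but not in thinned share, at 5.06% and 3.23%. Barcodes with 1 to 100 UMIs were at 126 CPM, and the part of free RNA in epithelial-like cells was not tested. The macrophage-like profile scaled to the macrophage markers in vehicle epithelial-like cells would hold 12.5% of those Cd14 UMIs, but 98.2% of the Clec4d, 84.9% of the Clec4e and 76.9% of the Tlr2 UMIs. The S100a8 and S100a9 scaling would hold 0.717% of the Cd14 UMIs. Cd14 was similar in the cluster led by Dmbt1, Gkn3 and Tff2, at 92.0 CPM, and in the cluster led by Cdkn2a, Hmga2 and Tnc, at 81.8 CPM. In takinib it was at 389 CPM [381, 398] over the class, of which the neutrophil scaling would hold 55.7%. In vehicle epithelial-like cells Tlr4 and Myd88 were at 19.2 CPM [16.7, 21.9] and 12.0 CPM [10.1, 14.2], with 10.0% and 11.6% of their UMIs in macrophage proportion. This share was also low for both genes in vehicle perivascular-like cells, at 10.7% for Tlr4 and 3.74% for Myd88, and in endothelial-like cells, at 11.6% and 9.27%.

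Vehicle cells of either sex gave different baselines in macrophages. Those with Xist and no Y-linked UMI (517 macrophage-like cells) had Clec4e at 109 CPM [96.4, 123], Fpr1 at 30.6 CPM [24.1, 38.2] and Fpr2 at 66.7 CPM [57.0, 77.7], and those with Y-linked UMIs and no Xist (1298 cells) had 58.1 CPM [52.4, 64.3], 17.8 CPM [14.7, 21.4] and 26.3 CPM [22.5, 30.6]. Cd14 and Clec4d went the other way, at 252 CPM [233, 273] and 40.6 CPM [33.1, 49.3] in the first and 308 CPM [295, 322] and 67.7 CPM [61.5, 74.3] in the second, with intervals that did not overlap for any of these 5 genes. Tlr2 also differed without overlap, at 143 CPM [129, 159] in the first and 118 CPM [109, 126] in the second. Tlr4 was at 53.5 and 54.1 CPM. A further 2761 vehicle macrophage-like cells had neither kind of UMI and entered neither baseline. Against the Xist cells alone, the median log2 ratio of the 9 genes in macrophage-like cells was 1.00, and against the Y-linked cells alone 1.50.

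Other genes of the same pathways, in 9 lists with 84 genes, mostly stayed within 2-fold. Over all genes tested in macrophage-like cells 1.92% were higher and 1.15% lower, the shares to set beside the counts of each list. In macrophage-like cells 2 of 8 other Toll-like receptors tested were higher and 0 lower, with Tlr7, an endosomal sensor of single-stranded RNA, at 13.5 and 47.5 CPM (log2 ratio 1.29 [1.18, 1.40]) and Tlr3 at the low end (-0.20). Of 9 TIR adaptors and IRAK kinases 1 was higher and 0 lower: Irak3, which encodes IRAK-M, an inhibitor of MyD88 signalling, at 13.1 CPM in vehicle and 106 CPM in takinib (2.33 [2.22, 2.43]). Ticam2 was lowest (-0.58). Of 8 co-receptors and trafficking factors 1 was higher and 1 lower: the scavenger and co-receptor Cd36 at 1.51 [1.40, 1.62], and Ly86 (MD-1) at -1.49 [-1.54, -1.45], from 433 to 147 CPM.

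Among 10 other C-type lectin receptors in macrophage-like cells 1 was higher, Clec4a1, at 7.40 and 103 CPM (2.70 [2.59, 2.81]), and 0 were lower. Clec4n, which encodes dectin-2 and sits at the low end of that list, was at 730 CPM in vehicle and 384 CPM in takinib (-0.91 [-0.94, -0.88]), opposite in direction to Clec4d and Clec4e. Of 7 lectin signalling genes 0 were higher and 1 was lower, the kinase gene Prkcd (-1.04 [-1.08, -0.99]), and Bcl10 was at 0.39. Of 15 inflammasome genes 2 were higher and 0 lower: Il1b, the cytokine that the inflammasome matures, was at 474 and 1316 CPM (1.46 [1.42, 1.49]), and Nlrp1b was lowest (-0.30). Of 9 cytosolic nucleic acid and NOD sensors 0 were higher and 1 was lower, Tmem173, which encodes STING, at 75.1 and 25.2 CPM (-1.27 [-1.36, -1.18]), with Ripk2 highest at 0.31. Of 6 scavenger receptors 3 were higher and 0 lower, led by Marco at 57.8 and 286 CPM (2.13 [2.05, 2.20]), and Stab1 was lowest (-0.31). None of the 5 other formyl peptide receptors had 50 UMIs in a library of the class.

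Over all genes tested in neutrophil-like cells 3.98% were higher and 14.5% lower, the shares to set beside the counts of each list. Irak3 was again the 1 gene of 9 in its list that was higher. It was at 38.2 CPM from 14 UMIs and 384 CPM (3.03 [2.41, 3.68]), with 0 lower and Irak4 at -0.80. Of 5 other Toll-like receptors 2 were higher and 0 lower. Tlr1, the partner of TLR2, had 0 UMIs in vehicle and 23.3 CPM in takinib, at least 2.85-fold higher if 3 UMIs are allowed in the vehicle class, and Tlr8 was at -0.06. Ly96, which encodes MD-2, the protein that binds lipopolysaccharide with TLR4, was at 2.73 CPM from 1 UMI and 38.8 CPM (1.94 [0.95, 2.28]), while 3 of the 8 in its list were lower, Ly86 most (-1.26). Of 8 other lectins 1 was higher, Clec4a1 (2.27 [1.28, 2.61]), and 2 were lower, with Clec4n at 821 and 176 CPM (-2.16 [-2.32, -1.99]). Of 14 inflammasome genes 2 were higher and 1 was lower: Mefv, which encodes pyrin, was at 10.9 CPM from 4 UMIs and 107 CPM (2.48 [1.62, 3.17]), and Nek7, an NLRP3 partner, at -1.03. Of 7 lectin signalling genes 1 was higher, Bcl10 (1.31), with Plcg2 at -0.56; of 8 cytosolic sensors 1 was lower, Tmem173 (-1.05), with Ripk2 at 0.65; and of 6 scavenger receptors 1 was lower, Stab1 (-1.32), with Marco at 0.41. Of these, Ly86, Tmem173 and Stab1 changed direction under another mitochondrial limit or cluster weighting. Neutrophil-like cells of vehicle carried macrophage markers at 2294 CPM in sum, against 746 CPM in those of takinib, and their part in the lower values of Ly86, Clec4n and Stab1 was not tested.

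**Figure D5:**
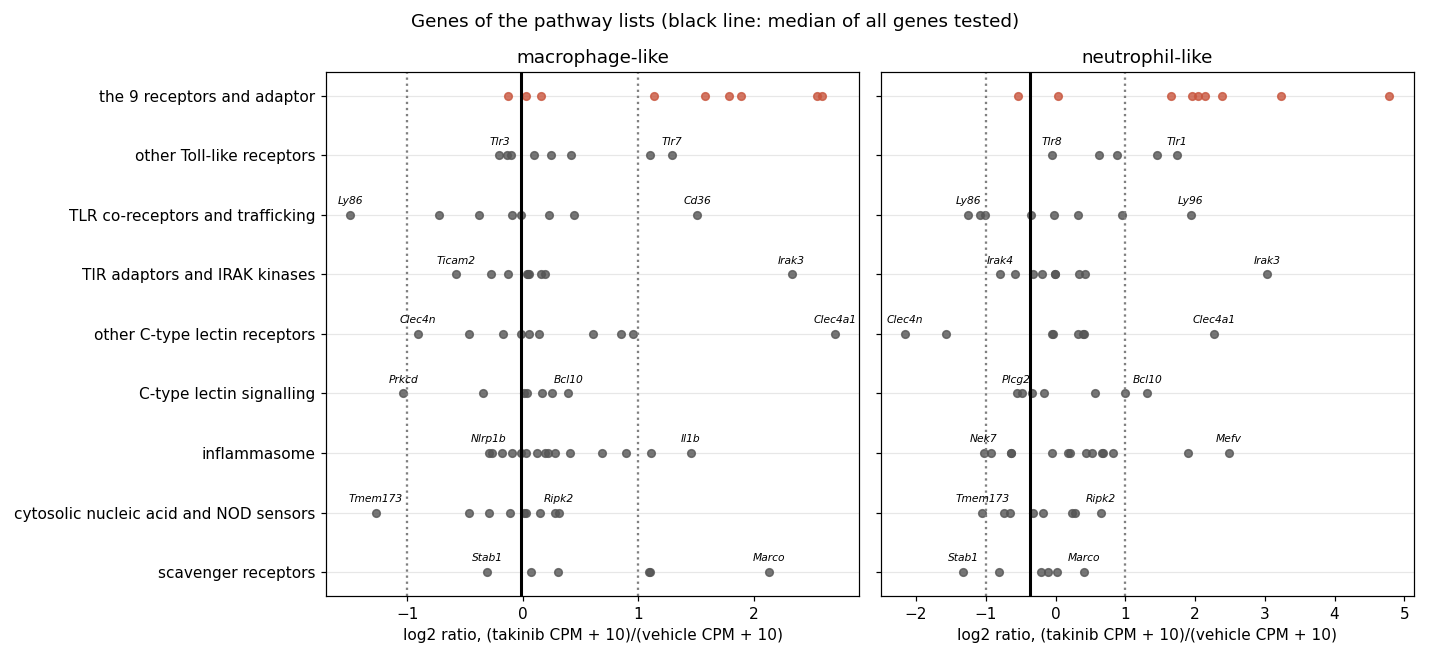
Log2 ratio of takinib to vehicle for the 9 genes (red) and the genes of the pathway lists (grey) in macrophage-like and neutrophil-like cells; the genes with the highest and lowest ratio in each list are named, the black line is the median of all genes tested and dotted lines mark 2-fold. Irak3 and Clec4a1 lie past the upper line in both classes, and Clec4n lies below 0 in both.

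Across the 21 class-by-library sums with at least 100 cells, the 6 genes had Pearson correlations between 0.89 (Fpr1 and Fpr2) and 0.98 with each other. The genes most like Nlrp3 among 12737 were Clec4d (Pearson r = 0.98 on log2(CPM + 10)), Clec4e (0.98) and Fpr2 (0.97). Those most like Clec4e were Nlrp3, the neutrophil chemokine gene Cxcl2 (0.98) and Clec4d, and those most like Cd14 were the cystine transporter gene Slc7a11 (0.97), Clec4d (0.95) and Clec4e (0.95). Fpr1 was most like Csta2 (0.95), Ppp1r15a and Slc7a11. The TLR genes and the adaptor differed: Tlr2 was most like F10 (0.965), Fcgr4 and Pirb, Tlr4 most like P2ry13 (0.91), Snap23 and Gsap, and Myd88 most like Lst1 (0.89), Gpsm3 and Rhog. Cd14 and Tlr4 had r = 0.55, and Cd14 and Myd88 0.49. These values describe the sums, which share libraries, depth and, in takinib, the S100a8 and S100a9 level given above, and no p-value is attached to them.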

How the data were processed

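Both libraries were deposited by the authors as raw UMI count matrices of genes by barcodes, made with Cell Ranger 4 (vehicle) and 6.1.1 (takinib) per the file headers; the submitters' processing notes name Cell Ranger 2.1.1, STAR 2.0.4b, featureCounts 1.45 and mm10. The vehicle matrix listed 704261 barcodes and 80850334 UMIs, and the takinib matrix 34158 and 139292875, with no barcode below 500 UMIs, so that only takinib had been filtered.

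Barcodes with at least 1000 UMIs, 500 genes and at most 20% mitochondrial UMIs were kept (9872 and 26790). Scrublet's automatic threshold removed 314 vehicle barcodes; in takinib it marked 0.00373%, and 1607 barcodes, the 6% scoring highest, were taken out instead. Joint clustering of the libraries used scanpy 1.11.5 (2000 variable genes without the genes and pathway lists reported, 30 components, 15 neighbours, Leiden resolution 1). Clusters were named X-like from fixed markers by mean scaled level; the naming rule was set after the clusters were seen. It required 3 markers, each in at least 10% of cells, and left 126 takinib cells unnamed. Neutrophil and immature neutrophil clusters were merged.

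UMIs were summed per class and library and divided by the class total (CPM). Ratios used a pseudocount of 10 CPM, and a gene was called at a log2 ratio past 1 with at least 50 UMIs in a library of the class. Comparisons were limited to classes holding 100 or more cells per library. The ratio calculation was tested on simulated data. Named pathway genes are the highest and lowest ratio of each list, and genes named as alike are the 3 with the highest r per gene. The genes, lists and markers were chosen with earlier results of these data known. Gene positions are from GENCODE M21 and promoters from RefSeq, both GRCm38; 7 genes had a promoter used here.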

Additional observations from a re-analysis of the deposited data

How the results depend on the processing

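Over 19 alternatives, Clec4e and Fpr1 stayed past 2-fold in macrophage-like, monocyte-like and neutrophil-like cells wherever a value could be computed. The median log2 ratio of the list in macrophage-like cells, 1.57, was 1.75 with the genes among the clustering genes, 1.64 at a 10% mitochondrial limit, 1.22 without doublet removal, 1.65 at Leiden resolution 0.5, 1.63 at resolution 2, 1.50 with each library clustered on its own, 0.81 with the same cluster weights in both libraries, 1.34 with the neutrophil profile subtracted, 1.00 against vehicle cells with Xist only, 1.50 against vehicle cells with Y-linked UMIs only, and 0.93 without the Saa3 cluster, an alternative chosen after seeing the data. The count past 2-fold there, 6, was 2 with the same cluster weights. That setting used only clusters with at least 20 cells in each library, and so left out the Saa3 cluster. In neutrophil-like cells the median of 2.04 was 2.82 at the 10% mitochondrial limit. It was 1.40 with the same cluster weights, which rest mainly on 20 vehicle cells. Only the Siglecf and Cxcr2 clusters entered that value.

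In macrophage-like cells Nlrp3 was below 2-fold when thinned (0.99), with the same weights (0.81), subtracted (0.80), against Xist cells (0.99) and without the Saa3 cluster (0.86); Cd14 (0.85), Clec4d (0.81) and Fpr2 (0.74) were so with the same weights, Cd14 (0.93) without the Saa3 cluster and Fpr2 (1.00, just under the line) against Xist cells. In monocyte-like cells Tlr2 (0.88) passed 2-fold with the genes among the clustering genes (1.11), at the 10% limit (1.16), with cells weighted equally (1.02) and against vehicle cells with Y-linked UMIs (1.91), and Tlr4 (0.31) at the 10% limit (1.04). In neutrophil-like cells Clec4d (2.15) and Nlrp3 (1.95) fell below 2-fold with the same weights (0.86 and 0.58). Fpr2 (1.65) did so at the 10% limit (0.46). Among values past 2-fold at the outset, directions changed in B-like cells for Tlr2 without doublet removal (-0.83) and Tlr4 against vehicle cells with Y-linked UMIs (-0.10). They changed for Clec4d in fibroblast-like cells with the profile subtracted (-0.24). In neutrophil-like cells they changed for Ly86 (0.90 at the 10% limit, 0.49 with the same weights), Stab1 (0.47 with the same weights) and Tmem173 (0.46 at the 10% limit). Values within 2-fold also changed sign, among them Tlr2 in macrophage-like cells (0.16), at -0.11 with the same weights. Tlr2 in fibroblast-like cells (0.07) was at -0.72 with the profile subtracted, and Myd88 in monocyte-like cells (0.04) was below 0 in 7 of 14 alternatives. The cause was not tested. No value was computed where under 20 vehicle cells remained: neutrophil-like cells at 2000 UMIs or with Xist only, and monocyte-like cells at resolution 0.5, clustered on their own or with Xist only. No paired analysis was possible because each group has 1 library. Depth limits the vehicle neutrophil-like class, with 366654 UMIs, where 3 UMIs are 8.18 CPM.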
